A study of Mus musculus with 40 samples.

Results

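The comparison described here set SynapTRAP RNA (ST) against the synaptoneurosome RNA it was drawn from (SNF) in VGAT-TRAP mice. Its members are the 10 libraries that the labels assign to the Vgat TRAP strain and to either fraction, 5 ST and 5 SNF, out of 40 libraries in the series. The other libraries are whole-cell homogenate (WCH) and TRAP RNA of the same VGAT pools, and all 4 fractions of a second line, RBP4-TRAP. ST and SNF libraries with the same replicate number came from 1 pool of mice, so that the comparison is paired over 5 pools.

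VGAT-TRAP mice carry Slc32a1tm2(cre)Lowl, which places Cre recombinase under the gene of the vesicular GABA transporter, and a Cre-dependent reporter that fuses EGFP to the ribosomal protein Rpl10a. Both fractions of every pool carry these alleles, so that SNF is not a wild-type control. Each pool held tissue of several animals at 21 d of age, with both sexes where available. The labels call the tissue cortex, while the methods describe forebrain, and some dorsal striatum may be present. The Cre acts in any GABAergic neuron, which in forebrain tissue with striatum means interneurons and striatal projection neurons together. RBP4-TRAP mice carry the same reporter with Tg(RBP4-cre)KL100Gsat, which is active in pyramidal neurons of layer 5, and were of the same age.

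Neurons translate part of their mRNA away from the cell body, in dendrites, axons and near synapses. Breaking tissue gently and separating it by density gives a fraction rich in synaptoneurosomes, resealed pieces of presynaptic and postsynaptic processes that also hold glial processes. Pulling down tagged ribosomes from that fraction (SynapTRAP) is meant to select mRNA bound to ribosomes in the processes of the tagged neurons. ST higher than SNF therefore means a larger share of the mRNA in the pulled-down pool than in the fraction, and as these are bulk samples, more cell processes of a kind and more RNA per process cannot be told apart.

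Libraries were 50-base single reads, made with a kit for very small RNA amounts that is biased to the 3′ ends of transcripts. The unit used below is cpm (CPM), a gene's count scaled to a common library total, taken over all genes outside the mitochondrial chromosome. Total counts were between 14259535 and 18579472 in ST and between 15396463 and 18406992 in SNF. A single count was worth 0.055 to 0.112 cpm in these libraries. Mitochondrial genes took 41.9% of the counts in SNF of pool 3 and 19.0% in ST of pool 3, against 13.3% to 19.4% and 2.80% to 5.71% in the other pools. Pool 3 therefore stood apart in both fractions. Replicate 3 of the RBP4 line did so as well, with 40.2% in SNF and 15.8% in ST. The other RBP4 replicates had 11.2% to 18.8% and 2.71% to 7.08%. Whether equal replicate numbers of the lines were handled together is not given. The ST libraries also fell into 2 sets: pools 1 and 2 had totals of 18579472 and 18311840, and pools 3 to 5 had totals from 14259535 to 14568701. Genes of several cell types followed the same division, which is described below with values without pools 1 and 2. These values were added after the data had been seen.

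Of 16088 genes tested, 3467 were higher in ST (21.6%) and 2620 were lower (16.3%) in a paired model, where the limit on the adjusted p was 0.05. The change was at least 2-fold for 923 of the higher genes (5.74% of those tested) and 633 of the lower genes (3.93%). At least 4-fold changes were found for 64 higher genes (0.398%) and 14 lower genes (0.087%). All 5 ST libraries lay above all 5 SNF libraries for 1525 genes (9.48%) and below them for 1078 genes (6.7%). The median log2 fold change over all genes was 0.07, the level against which the gene groups below are read. When mitochondrial counts were kept in the library sizes the median was 0.32, with 5928 genes higher and 1551 lower, so that the higher genes made up 79.3% of the calls in place of 57.0%. Other scalings turned the excess of higher genes round, with 2860 higher and 3043 lower with TMM factors, 2925 and 3037 with DESeq2 size factors and 2715 and 2942 with DESeq2. Without pools 1 and 2, 2721 genes were higher and 2466 lower, and without pool 3, 3276 and 2357.

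**Figure D1:**
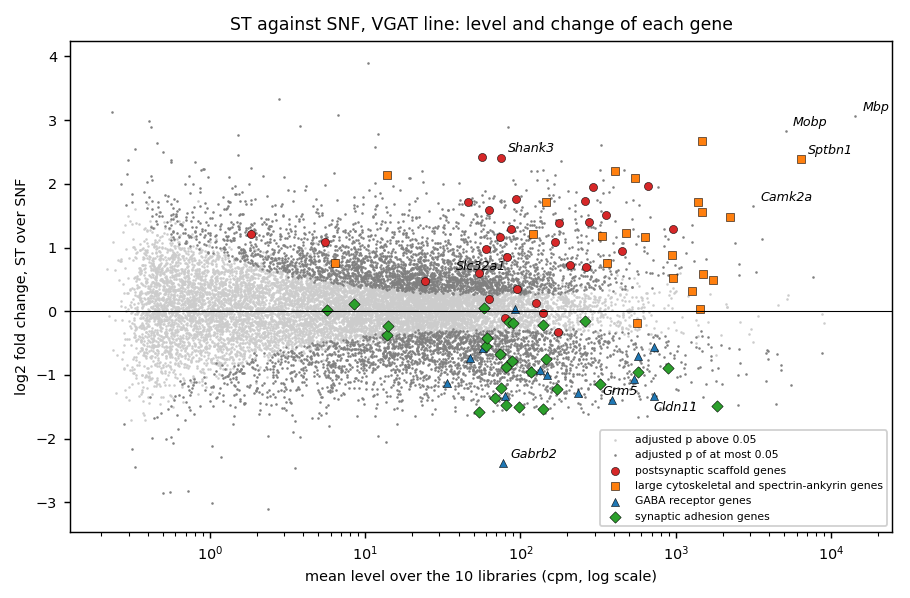
Mean level over the 10 libraries (cpm, log axis, horizontal) against the log2 fold change of ST over SNF (vertical), each grey point a gene tested, with 4 gene lists as coloured symbols. Most scaffold and cytoskeletal genes lie above 0, as do Mbp, Mobp and Camk2a, and most GABA receptor and adhesion genes lie below 0.

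The named genes with the largest rises included myelin, myosin, spectrin, junction and scaffold genes. They come from the 10 genes in each direction with the largest changes among those with a mean of at least 5 cpm and no overlap between the groups. Mbp, which encodes myelin basic protein and whose mRNA is carried along oligodendrocyte processes, had the largest rise of these. It was at 2596, 2933, 3716, 2014 and 3957 cpm in SNF of pools 1 to 5 and at 27584, 21225, 26829, 16469 and 35121 cpm in ST. The rise was 3.06 ± 0.15 (log2 fold change ± SE, adjusted p = 8.8e-08), and the lowest ST library, that of pool 4, was far above the highest SNF library, that of pool 5. Mobp, another myelin gene, rose by 2.82 ± 0.16, and Prr18 and Bcas1, both of which are expressed in oligodendrocytes, rose by 2.90 ± 0.11 and 2.61 ± 0.12. Sptb, a spectrin gene, rose by 2.64 ± 0.16. Myh9 and Myh14, nonmuscle myosin heavy chains, rose by 2.54 ± 0.13 and 2.58 ± 0.23. Cgnl1, a junction protein gene, rose by 2.78 ± 0.14 and Dlgap3, a scaffold gene, by 2.42 ± 0.15.

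The 10 named genes with the largest falls encode mostly membrane proteins. Gabrb2, the β2 subunit of the GABA-A receptor (chr11:42419757-42629028, GRCm38), fell most of these. It was at 134, 169, 70.7, 116 and 153 cpm in SNF and at 17.8, 22.4, 10.9, 37.3 and 43.3 cpm in ST, a log2 fold change of -2.39 ± 0.20 (adjusted p = 4.6e-06). The highest ST library was below the lowest SNF library. Gpr137c fell by 2.05 on the log2 scale, AI593442 by 1.95, Scn7a, a sodium channel gene, by 1.81, Glt8d2 by 1.77 and Ttyh2 by 1.67. Cacna2d1, an auxiliary subunit of calcium channels, fell by 1.66, Cldn11, the claudin of myelin, by 1.65, P2ry13, a purine receptor of microglia, by 1.65 and Pcdhb18, a protocadherin, by 1.64.

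Genes of the postsynaptic scaffold rose as a group. Of 30 such genes, which encode the proteins that hold receptors and signalling enzymes under the postsynaptic membrane, 25 were higher in ST and 1 was lower, with a median log2 fold change of 1.13. For 20 of them no ST library overlapped an SNF library. Shank3 (chr15:89499623-89560261) was at 25, 22.6, 24.1, 21 and 22 cpm in SNF and at 139, 119, 178, 113 and 80.8 cpm in ST, a rise of 2.41 ± 0.14 (adjusted p = 1.7e-07). ST was highest in pool 3 and lowest in pool 5, and the SNF libraries differed little from each other. Dlgap3 (chr4:127169204-127237022), which links Shank proteins to PSD-95, had 15.2 to 21.2 cpm in SNF and 60 to 143 cpm in ST. Dlg4, which encodes PSD-95 itself, rose by 1.17 ± 0.12, from 45.1 ± 5.97 to 102 ± 16 cpm (mean ± SD, n = 5). Shank1, the most abundant of the list, rose by 1.28 ± 0.13 to 1361 ± 199 cpm.

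Members of the list that belong to inhibitory synapses did not all move in this way. Gphn, the gephyrin gene and the main scaffold of inhibitory synapses, was at 81.9 ± 14.9 cpm in SNF and 76.1 ± 14 cpm in ST (-0.11 ± 0.10, adjusted p = 0.42). Iqsec3, a further gene of inhibitory postsynaptic sites, rose by 1.73. Homer1, Baiap2 and Dlg3 did not pass the test, nor did Gphn. Gphn, Iqsec3 and these 3 genes were picked out after their values had been seen. The scaffold list had 24 higher and 2 lower in pools 1 and 2 alone and 23 higher and 0 lower without them.

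Of 22 mRNAs long known from dendrites, 13 rose and 4 fell, with a median of 0.79. This list shares 7 genes with the scaffold list. Camk2a, the α subunit of the calcium/calmodulin-dependent kinase of excitatory neurons, was at 1565, 1305, 1726, 1463 and 1528 cpm in SNF and at 4940, 4433, 5078, 4883 and 4464 cpm in ST (1.65 ± 0.12, adjusted p = 5.8e-07). The 5 pools were close to each other within both fractions. Arc, an activity-induced mRNA that moves into dendrites, was at 84.2, 111, 24.9, 52.4 and 20.1 cpm in SNF and at 257, 251, 101, 152 and 52.9 cpm in ST. The 2 groups overlapped, but ST was higher in all 5 pools and the paired change was 1.54 ± 0.12. Gria2, a subunit of the AMPA receptor, fell by 1.34 on the log2 scale and Bdnf, a secreted growth factor, by 1.27. Actb, the β-actin gene and most abundant of the list, was at 4426 ± 1398 cpm in SNF and 4662 ± 1131 cpm in ST and did not pass the test (0.09 ± 0.22).

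Most large cytoskeletal genes rose too. Of 22 genes, 19 were higher in ST and 0 were lower, with a median of 1.19. Sptbn1, the most abundant, had 1428, 1342, 2302, 2052 and 2023 cpm in SNF and 5109, 4478, 13861, 19463 and 11567 cpm in ST (2.38 ± 0.21). The rise was therefore larger in pools 3 to 5. Macf1 and Dst, which encode giant proteins that join actin to microtubules, rose by 2.20 and 2.09, and the ankyrin genes Ank2 and Ank3 by 1.48 and 1.56. The list was higher in 20 and lower in 0 genes in pools 1 and 2 alone, and in 18 and 1 without them.

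Receptors moved in the opposite direction to the scaffolds that hold them. Of 14 GABA receptor genes, 0 rose and 13 fell, with a median of -1.03. Gabbr1, a subunit of the metabotropic GABA-B receptor, was at 858 ± 67.1 and 584 ± 70.6 cpm, and its ST libraries all lay below its SNF libraries. Gabrd, a subunit of receptors outside the synapse, was the one gene that did not pass the test (0.03). Of 26 glutamate receptor genes tested, 3 rose and 17 fell, with a median of -0.65. Grm5, a metabotropic receptor, was at 482, 503, 320, 427 and 455 cpm in SNF and at 140, 166, 136, 195 and 188 cpm in ST (-1.41 ± 0.12). Gria2 was at 2158 ± 557 and 849 ± 228 cpm. The 3 that rose were Grik5 (0.92 ± 0.14), which encodes a kainate receptor subunit, Grin2c (0.72) and Cacng4 (0.38).

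Voltage-gated channels and adhesion molecules followed the receptors. Of 37 channel genes, 3 rose and 23 fell, with a median of -0.53. Scn2a, a sodium channel of axons, fell from 1439 ± 293 to 622 ± 194 cpm (-1.24 ± 0.13) and Kcna3, a potassium channel, by 1.64 on the log2 scale. The 3 that rose were Hcn2 (0.86 ± 0.15), Cacna1i (0.40) and Kcnc1 (0.28). Of 27 synaptic adhesion genes 0 rose and 18 fell, with a median of -0.78. Nlgn1, a postsynaptic partner of neurexins, fell by 1.22 and Slitrk2 by 1.59. Over the receptor, channel and adhesion lists together, 6 of 104 genes rose and 71 fell (median -0.71), against 44 and 1 of 52 for the scaffold and cytoskeletal lists (median 1.17).

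**Figure D2:**
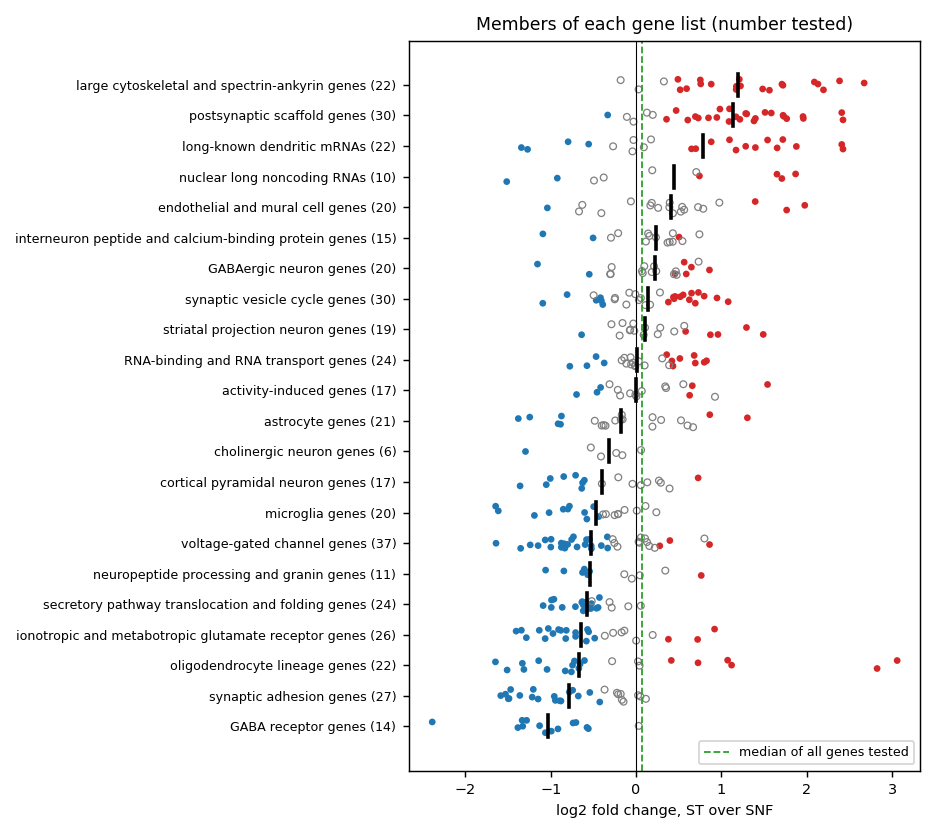
Log2 fold changes of ST over SNF (horizontal) for the tested members of 22 gene lists, each point a gene (filled where the adjusted p was at most 0.05, red for higher and blue for lower) and each black bar a list's median. The scaffold and cytoskeletal lists have medians of 1.13 and 1.19, and the GABA receptor and adhesion lists medians of -1.03 and -0.78.

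Genes of the endoplasmic reticulum, where receptors, channels and peptides are made, were lower in ST as well. Of 24 genes for translocation into the endoplasmic reticulum and folding there, 0 rose and 19 fell, with a median of -0.58. Canx, the lectin chaperone calnexin, fell from 2470 ± 221 to 1167 ± 171 cpm (-1.09 ± 0.12), and Hspa5, the chaperone BiP, from 1039 ± 188 to 639 ± 131 cpm (-0.71). Of 11 genes for neuropeptide processing and granins, 6 fell, with a median of -0.54. Pcsk1, a prohormone convertase, fell by 1.06. Vgf, a granin that is cut to peptides, was the only one that rose, from 78.3 ± 8.85 to 139 ± 46.8 cpm (0.76 ± 0.14). Its ST levels were 185 and 182 cpm in pools 1 and 2 and 88.1 to 146 cpm in the others.

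Genes of the synaptic vesicle cycle were mixed: 13 of 30 rose and 6 fell, with a median of 0.14. Among the 13 were cytosolic and membrane-anchored release proteins and scaffolds of the active zone. Cplx2, a complexin, rose from 288 ± 29.6 to 610 ± 79.8 cpm (1.08 ± 0.11), Vamp2, the vesicle SNARE, by 0.80 and Bsn, the active-zone scaffold bassoon, by 0.62. Among the 6 that fell were Syt1 (-1.09), the calcium sensor of release, Snap25 (-0.81), Pclo (-0.42), Sv2a (-0.41) and Syp (-0.39). Syt1 was at 5651, 6610, 3815, 4865 and 5215 cpm in SNF and at 2268, 2756, 2116, 2561 and 2415 cpm in ST, without overlap.

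Most markers of the tagged neurons did not pass the test, and the pools differed. Slc32a1, the gene that drives Cre in this line (chr2:158610767-158615748), was at 32.7, 35.7, 19.9, 26.8 and 23.9 cpm in SNF and at 40.9, 45.5, 23.3, 46.6 and 51.3 cpm in ST. ST was higher in all 5 pools, though the groups overlapped, and the paired change was 0.56 ± 0.14 (adjusted p = 0.0052). In whole homogenate the same gene was 2.50 higher in TRAP than in WCH on the log2 scale. Of 20 GABAergic neuron genes 5 rose and 2 fell from SNF to ST, with a median of 0.22, where 21.6% of all genes rose and 16.3% fell. Among those that rose were Slc32a1 and the transcription factor genes Sox6 (0.65), Sp9 (0.59) and Maf (0.46). Erbb4, a receptor kinase, fell by 1.16 and Sp8 by 0.55. Gad1 and Gad2, which encode the enzymes that make GABA, did not pass the test, at 0.10 ± 0.19 and -0.29 ± 0.22.

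Neuropeptide mRNAs differed between the pools. Sst, the somatostatin gene (chr16:23889581-23890844), was at 701, 812, 532, 630 and 613 cpm in SNF and at 349, 409, 1142, 1429 and 2094 cpm in ST. ST was thus below SNF in pools 1 and 2 and above it in pools 3 to 5, and the paired change over all pools was 0.43 ± 0.39 (adjusted p = 0.42). Npy, neuropeptide Y, had 802, 930, 532, 711 and 758 cpm in SNF and 410, 510, 913, 1711 and 2248 cpm in ST. Vip had 170, 188, 150, 181 and 171 cpm in SNF and 83.8, 122, 168, 392 and 352 cpm in ST, again with the low ST values in pools 1 and 2. Pvalb, the calcium-binding protein of fast-spiking interneurons, had 62.6 to 85.6 cpm in SNF, 52.6 and 51.5 cpm in ST of pools 1 and 2 and 164 to 187 cpm in ST of pools 3 to 5. Cort, the cortistatin gene, had 9.72 to 11.6 cpm in SNF, 8.92 and 9.97 cpm in ST of pools 1 and 2 and 21.3 to 36.6 cpm in the others.

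Over the 15 interneuron peptide and calcium-binding protein genes, 1 rose (Nos1, 0.50 ± 0.15) and 2 fell (Cnr1, -1.09 ± 0.17, and Reln, -0.50). Nos1 no longer passed without pool 3 (adjusted p = 0.070), pool 4 (0.074) or pool 5 (0.085), or without the block for the pool (0.16). Cort (0.74 ± 0.27, adjusted p = 0.052) passed with DESeq2 (0.023), and its adjusted p ranged from 8.5e-10 to 0.33 over the alternatives. A pattern of ST lower in pools 1 and 2 and higher in pools 3 to 5 was found for 11 of these 15 genes, 7 of 20 GABAergic neuron genes and 6 of 19 striatal projection neuron genes, against 607 of all genes (3.77%). This pattern was noticed in the same data. The median log2 ratio of ST to SNF over the peptide list was -0.82, -0.67, 0.74, 0.93 and 0.85 in pools 1 to 5. For the GABAergic list it was -0.23, -0.28, 0.44, 0.49 and 0.56. For all genes it was 0.02, 0.10, 0.02, 0.08 and 0.10.

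Leaving out pools 1 and 2 changed these lists. As those pools were set aside after the values of these genes had been seen, all values without them are descriptions and support no difference. From the other 3 pools, 11 peptide genes rose and 2 fell, with a median of 0.89, and 11 GABAergic genes rose and 1 fell, with a median of 0.56. Sst then rose by 1.35, Cort by 1.38, Npy by 1.21, Pvalb by 1.25, Vip by 0.78, Slc32a1 by 0.73 and Gad1 by 0.50. Gad2 still did not pass the test (0.22). In pools 1 and 2 alone, 0 peptide genes rose and 12 fell, and 4 GABAergic genes rose and 8 fell. That fit has only 4 libraries, and with no more than 3 pools on either side these values describe the pools.

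**Figure D3:**
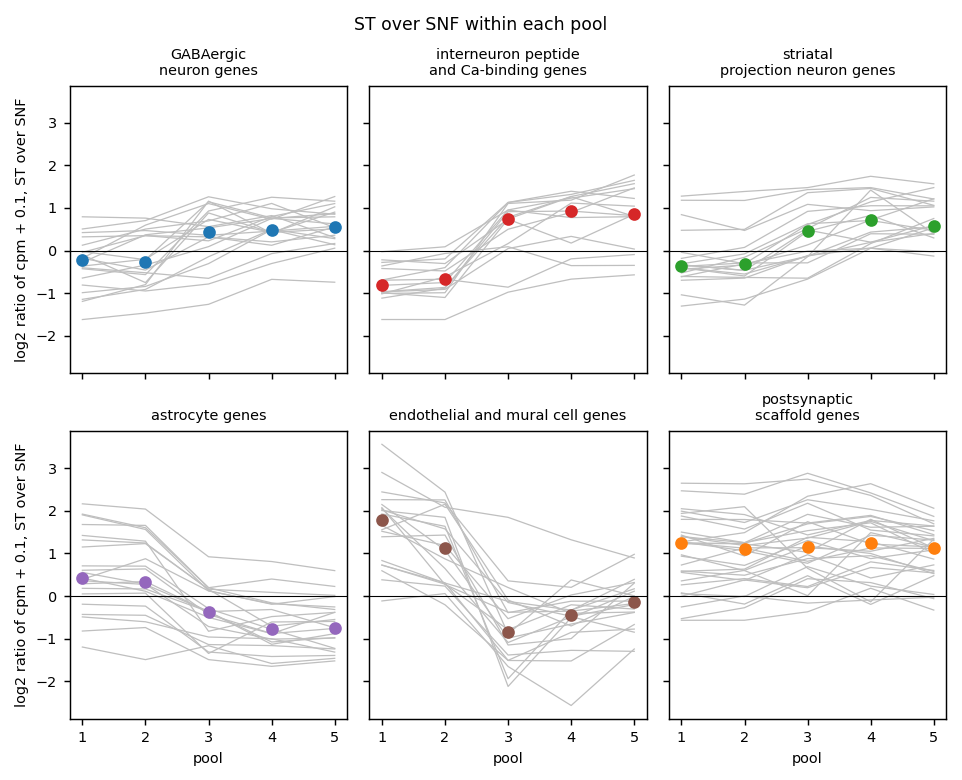
Log2 ratio of ST over SNF (cpm + 0.1, vertical) in each of the 5 pools (horizontal) for 6 gene lists, each grey line a gene and each coloured point the list's median. GABAergic, peptide and striatal genes lie lower in pools 1 and 2 than in pools 3 to 5, astrocyte and endothelial genes lie higher, and scaffold genes have medians from 1.09 to 1.25 in all pools.

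Striatal projection neurons, which use GABA and carry the tag in this line, were represented in both fractions. Of 19 genes typical of them 5 rose and 1 fell, with a median of 0.10, where 21.6% of all genes rose and 16.3% fell. Syndig1l was at 29.2, 26.4, 26.7, 20.7 and 35 cpm in SNF and at 70.8, 69.2, 74.5, 69.5 and 104 cpm in ST (1.49 ± 0.11), a rise that was alike in all pools. Rasd2 (1.29), Pde1b (0.96), Adcy5 (0.87) and Ppp1r1b (0.58), which act in dopamine and cyclic nucleotide signalling, rose as well. Drd1, the D1 dopamine receptor, fell by 0.64, but did not pass without pool 1 (adjusted p = 0.055) or pool 2 (0.072), or without both (-0.23, adjusted p = 0.22). Penk, the enkephalin precursor and most abundant of the list, was at 797 ± 275 and 1021 ± 622 cpm and did not pass the test over 5 pools (0.25 ± 0.22). Without pools 1 and 2, 10 of the striatal genes rose and 0 fell, with a median of 0.59, and Penk rose by 0.69. In the RBP4 line, where the tag is in layer 5 pyramidal neurons, 4 of the 19 genes rose and 11 fell from SNF to ST. Syndig1l rose by 0.90 there.

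Several markers of pyramidal neurons, which are untagged in this line, were lower in ST. Of 17 cortical pyramidal neuron genes, 1 rose and 8 fell, with a median of -0.40. Slc17a7, the vesicular glutamate transporter VGLUT1, was at 939, 1144, 719, 748 and 784 cpm in SNF and at 688, 713, 635, 396 and 418 cpm in ST (-0.63 ± 0.13, adjusted p = 0.0021). All ST libraries were below all SNF libraries, but narrowly, with 713 cpm as the highest ST and 719 cpm as the lowest SNF level. Slc17a7 no longer passed without the block for the pool (adjusted p = 0.0505) or with mitochondrial genes kept (0.055). The same held in 20 libraries of the line with the block (0.19) and without it (0.25). The change stayed negative in these fits, between -0.65 and -0.38. Slc17a6, VGLUT2, fell by 1.36 and Neurod6 by 1.05, while Cux2, a transcription factor gene of upper layers, rose by 0.73 ± 0.14. Of 6 cholinergic neuron genes tested only Slc5a7, the choline transporter, passed, and it fell from 10.4 ± 4.33 to 4.26 ± 1.8 cpm. From WCH to TRAP 4 cholinergic genes rose and 0 fell in this line (median 1.48). They are therefore not read as markers of untagged neurons. Pyramidal mRNAs were nevertheless still present in ST, where Slc17a7 was at 570 ± 151 cpm against 41.5 ± 10.9 cpm for Slc32a1. In the RBP4 line, which tags layer 5 pyramidal neurons, 2 of the 17 pyramidal genes rose and 6 fell, with a median of -0.06. Slc17a7 changed by 0.08 there. The difference between the lines had a median of -0.20 over these genes, beside 0.13 for all genes.

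Oligodendrocyte genes split in 2 directions. Of 22 genes 6 rose and 13 fell, with a median of -0.66. Mbp and Mobp (chr9:120149742-120181484) were the 2 with the largest rises, and Cnp (1.12), Olig1 (1.07), Ermn (0.73) and Sox10 (0.41) were the others. Mobp was at 1022, 1044, 1541, 981 and 1829 cpm in SNF and at 8997, 8274, 7239, 8064 and 12056 cpm in ST, without overlap and at a similar ST level in pools 1 to 4. Mog, on the outer face of myelin, fell by 1.14 and Cldn11 by 1.65. Mog and Cldn11 encode membrane proteins made on the endoplasmic reticulum, while the products of Mbp and Mobp are made on free ribosomes. Mog and Cnp were chosen for mention after their values had been seen.

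By itself, Mbp took 1.65% to 3.51% of all counts in ST and 0.201% to 0.396% in SNF. The summed level of the 22 oligodendrocyte genes was 34076 to 56377 cpm in ST and 18042 to 21851 cpm in SNF, and it was higher in ST in all 5 pools. When pools 1 and 2 were left out, 6 of these genes rose and 14 fell. Their part in the other results was not tested.

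**Figure D4:**
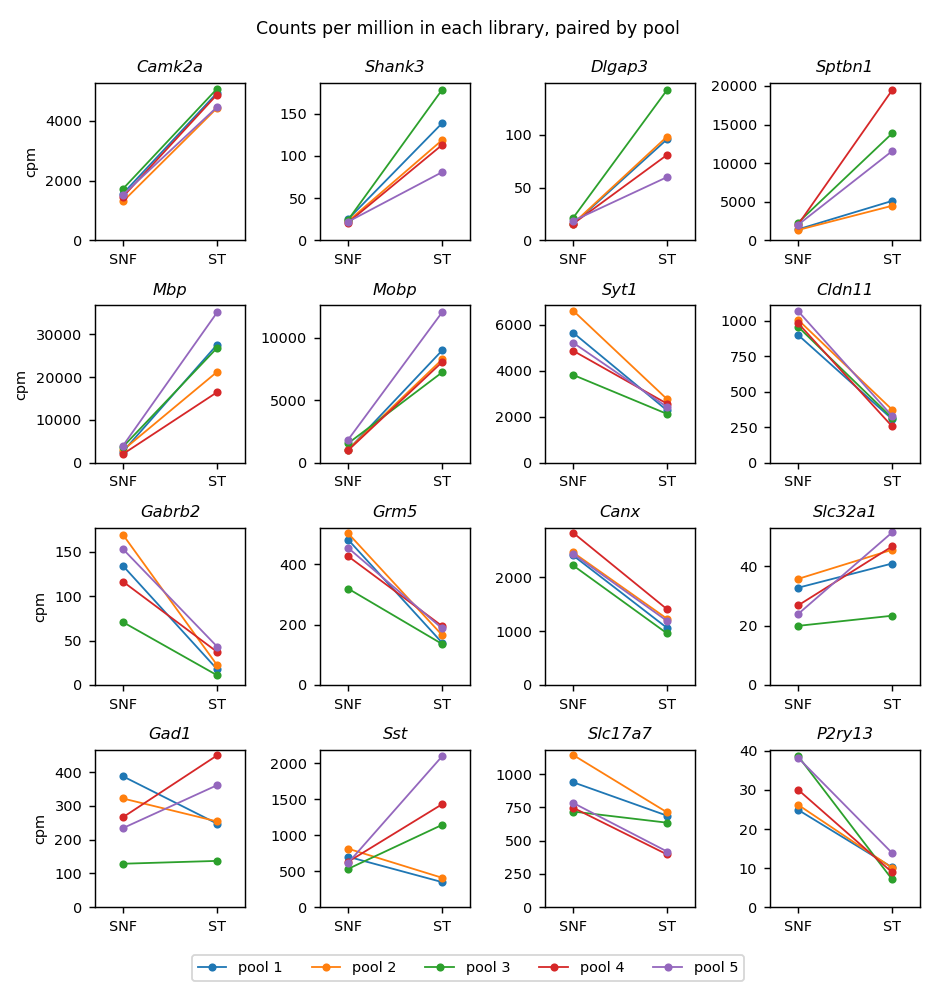
Level in cpm (vertical, from 0) in SNF and ST for 16 genes, with a coloured line for each of the 5 pools. Lines rise in every pool for Camk2a, Shank3 and Mbp, fall in every pool for Gabrb2, Grm5 and Syt1, and cross for Gad1 and Sst.

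Markers of other cell types differed between the pools. Of 21 astrocyte genes 2 rose and 5 fell, with a median of -0.18. The 2 that rose were Gfap, an intermediate filament gene (169 ± 67.5 cpm in SNF and 433 ± 182 cpm in ST), and Aldh1l1 (0.86), and among those that fell were Atp1b2 (-1.38 ± 0.12) and Gja1, a gap junction gene (-1.25). Their list median per pool was 0.42 and 0.34 in pools 1 and 2 and -0.37, -0.78 and -0.74 in pools 3 to 5. Slc1a2, the glutamate transporter GLT-1, had 6535, 6273, 18228, 7970 and 7824 cpm in SNF and 10676, 10199, 14855, 4640 and 3340 cpm in ST. Without pools 1 and 2, 1 astrocyte gene rose and 15 fell, with a median of -0.69, and in pools 1 and 2 alone 14 rose and 5 fell.

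Endothelial and mural cell genes were divided as well, with list medians of 1.79, 1.13, -0.84, -0.44 and -0.15 in pools 1 to 5. Of 20 genes 3 rose and 1 fell over all pools. Flt1, a receptor of endothelial cells, was at 13.3, 6.95, 5.14, 3.92 and 5.7 cpm in SNF and at 72.9, 32, 6.61, 4.54 and 11.3 cpm in ST. Acta2, smooth muscle actin, rose by 1.98 ± 0.27 and Cldn5 by 1.76 ± 0.57, while Abcc9, a gene of pericytes, fell by 1.04. Abcc9 no longer passed without the block for the pool (adjusted p = 0.11) or without pool 3 (0.10), pool 4 (0.095) or pool 5 (0.10). Without pools 1 and 2, 1 of these genes rose and 5 fell, with a median of -0.37. Of 20 microglia genes 0 rose and 11 fell, with a median of -0.47, and without pools 1 and 2, 0 rose and 16 fell. Cx3cr1 fell by 0.78. None of the microglia, astrocyte, oligodendrocyte or endothelial genes was at 0 in all 10 libraries. The list medians of these cell types were higher in pools 1 and 2 than in pools 3 to 5, opposite to the GABAergic and peptide lists. Their part in the neuronal results was not tested.

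Genes for the translation machinery were somewhat higher in ST. Of 79 cytoplasmic ribosomal protein genes tested, 46 rose and 1 fell, with a median of 0.45. Reads that these genes share with pseudogenes were left out of the counts, so that single values are uncertain. Rpl10a, whose product is tagged in these mice, had 0.652 to 2.36 cpm in SNF and 0.339 to 4.26 cpm in ST. Of 63 translation factor genes 27 rose and 5 fell, with a median of 0.26. Eef2, the elongation factor that moves the ribosome along, rose from 545 ± 82.3 to 1223 ± 326 cpm (1.14 ± 0.14) and Eif3f by 1.44 ± 0.12, while Eif2ak3, the kinase PERK that sits in the membrane of the endoplasmic reticulum, fell by 0.78. Of 38 proteasome genes, 19 rose and 0 fell (median 0.29).

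Nuclear genes for mitochondrial proteins rose in a share near the 21.6% of all genes. For 82 genes of the respiratory chain and ATP synthase, 16 rose and 1 fell (median 0.12), and for 74 mitochondrial ribosomal protein genes 13 rose and 3 fell (median 0.15). Atp5b, the β subunit of ATP synthase, rose by 0.69 ± 0.12. Of 14 tubulin genes 5 rose and 0 fell (median 0.30), and of 17 histone genes 2 rose and 0 fell (median 0.22). Of 314 zinc finger protein genes 66 rose and 22 fell (median -0.01).

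RNA-binding proteins and activity-induced genes showed no common direction. Of 24 RNA-binding and transport genes 8 rose and 4 fell (median 0.01). Purb and Pum2, which bind mRNA in neurons, rose by 0.83 and 0.80, Elavl2 fell by 0.78, and Fmr1, the gene of FMRP, did not pass the test (-0.01). Of 17 activity-induced genes, Arc, Nr4a3 (0.66) and Fosl2 (0.63) rose and Egr1 (-0.70), Btg2 (-0.46) and Fos (-0.42) fell. The rise of Arc thus stood beside a fall of Egr1, a transcription factor gene induced by the same kind of stimulus. Of 10 nuclear noncoding RNAs, Neat1 (1.65), Tsix (1.87), Xist (1.71) and Kcnq1ot1 (0.74) rose and Malat1 (-0.92) and Snhg11 (-1.52) fell. Xist, Malat1 and Snhg11 no longer passed without the block for the pool (adjusted p = 0.49, 0.42 and 0.34). The same held in 20 libraries of the line with the block (0.17, 0.30 and 0.051). Xist was at 1.02 to 536 cpm in ST and 2.23 to 204 cpm in SNF, highest in pools 4 and 5 and lowest in pool 3 in both fractions, and it cannot be told apart from its antisense partner Tsix if the counting ignored strand. Malat1 was still at 3480 ± 3052 cpm in ST.

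Genes with long coding sequences were more often higher in ST. In the 10% of genes with the shortest coding sequence 13.0% rose, with a median of -0.03, and in the 10% with the longest, of at least 3594 bases, 38.1% rose, with a median of 0.27. In the 10% with the shortest 3′ UTRs 6.46% fell, against 24.7% in the 10% with the longest, while the shares that rose were 20.4% and 26.6%. Longer genes also gather more counts at the same copy number, and the part of that in the counts of calls was not tested.

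Beside TRAP in whole homogenate, pulldown from synaptoneurosomes enriched a different set. The compared value is the change from SNF to ST less the change from WCH to TRAP in the same 5 pools. Of 16994 genes, 6498 had a higher value (38.2%) and 2779 a lower one (16.4%). With TMM scaling the counts were 4650 and 4443, so that higher genes were 51.1% of the calls in place of 70.0%, and the median over all genes was 0.03 in place of 0.38. The counts were 4348 and 1797 when pools 1 and 2 were left out.

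Markers of the tagged neurons had lower values of this difference. All 20 GABAergic neuron genes but 1 were called lower and 0 higher, with a median of -1.98, as were 13 of 15 peptide genes (median -2.61) and 18 of 19 striatal genes (median -1.67). TMM scaling gave 19, 14 and 19 lower and 0 higher, and leaving out pools 1 and 2 gave 18, 12 and 14. Slc32a1 rose by 2.50 from WCH to TRAP and by 0.56 from SNF to ST, a difference of -1.94 ± 0.24. Sst had 211 to 228 cpm in WCH and 2400 to 3648 cpm in TRAP, a rise of 3.66, against the change of 0.43 from SNF to ST, and the difference was -3.09. Abhd11os (-3.59), Pthlh (-3.03) and Crh (-3.02) were the other genes with the lowest differences under the rule for named genes, and Pthlh and Crh are hormone genes of interneurons.

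Glial genes had higher values. All 22 oligodendrocyte genes were called higher (median 2.31), as were 20 of 21 astrocyte genes (2.46) and 18 of 20 endothelial and mural cell genes (3.27), with 0 lower. With TMM scaling the counts were 20, 18 and 15 higher, and 1 astrocyte gene was lower, and from pools 3 to 5 alone they were 15, 16 and 11. From WCH to TRAP 22, 21 and 16 genes of these lists fell, with medians of -2.78, -2.54 and -2.73. From SNF to ST their medians were -0.66, -0.18 and 0.41. The higher values thus came mainly from the falls in TRAP. Microglia genes (17 higher and 1 lower) and pyramidal neuron genes (14 of 17 higher, median 2.14) also had higher values. Mobp fell by 2.48 from WCH to TRAP and rose by 2.82 from SNF to ST, a difference of 5.34 ± 0.36, and Xist had 6.27 ± 1.48. Slco1a4, a transporter of brain endothelium, had 5.22, with only 0.06 to 0.83 cpm in TRAP, and Mbp had 4.94. In TRAP, Mbp was at 111, 96, 555, 139 and 545 cpm in pools 1 to 5, high in pools 3 and 5. The part of these glial values in the scaffold and cytoskeletal results was not tested.

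Scaffold genes also had higher values: 26 of 30 were called higher and 1 lower, with a median of 1.72, and with TMM scaling 22 and 1, with a median of 1.36. Shank3 was at 10.1 to 14.7 cpm in WCH and at 12.7 to 25 cpm in TRAP, a rise of 0.50 ± 0.20, against 2.41 from SNF to ST. Camk2a, a gene mainly of excitatory neurons, fell by 1.47 from WCH to TRAP and rose by 1.65 from SNF to ST. GABA receptor genes had 1 higher and 6 lower. Across 16088 genes the log2 fold changes of ST over SNF and of TRAP over WCH had a Pearson r of 0.13, a description over genes, which are not independent. Of the 3467 genes higher in ST, 934 were also higher in TRAP (26.9% of these, and 24.5% of the genes higher in TRAP, where 22.4% of all genes tested were higher). Another 1389 were lower in TRAP, a share below the 44.1% of all genes tested that were lower there. Of the 2620 genes lower in ST, 1611 were lower in TRAP (61.5%, and 21.5% of the genes lower in TRAP, where 44.1% were lower).

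The RBP4-TRAP line shared many of these calls from SNF to ST. Across 16088 genes the log2 fold changes of the 2 lines had a Pearson r of 0.76, over libraries that are not shared. In the RBP4 line 1831 genes were higher (10.9%) and 2667 lower (15.9%). Of the genes higher in ST in the VGAT line 1671 were also higher in the RBP4 line (48.2% of the VGAT and 91.3% of the RBP4 genes), and of the lower genes 1863 (71.1% and 69.9%). Scaffold genes counted 21 higher and 1 lower in the RBP4 line, cytoskeletal genes 15 and 0, GABA receptor genes 0 and 11 and adhesion genes 0 and 17. Shank3 rose by 2.26 there and Mbp by 2.77, and Gabrb2 fell by 2.21.

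A direct test of the difference between the lines called 0 of 16784 genes higher (0.0%) and 0 lower with edgeR's quasi-likelihood test, and DESeq2 called 0. In simulated counts the quasi-likelihood test found 104 of 200 genes changed 2-fold, so that 0 calls do not show equal changes in the lines. At an unadjusted p under 0.05 there were 675 genes higher (4.02%) and 116 lower (0.691%), and with TMM scaling 339 and 351. The likelihood ratio test called 8 higher. Shank3 differed by 0.15, with a 95% interval from -0.30 to 0.61, so that a difference of the size of its rise in either line lies outside the interval. Slc32a1 differed by 1.35 ± 0.29 (unadjusted p = 0.00021, adjusted p = 0.66), since it rose in the VGAT line and had a change of -0.79 in the RBP4 line. In the RBP4 line it was at 35.4, 44.2, 24.1, 37.8 and 27.1 cpm in SNF and at 19.7, 16.7, 10.9, 49.9 and 14.2 cpm in ST. The ST library of replicate 4 went against its label in this gene, as the only one above its SNF library. For Sst, Npy, Vip, Gad1 and Gad2 that ST library was below SNF, at 161 against 595 cpm for Sst and 171 against 257 cpm for Gad1. Without that library the difference in Slc32a1 was 1.65 ± 0.22, a description only, as the library was singled out by its level of this gene.

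The difference between the lines was positive for 19 of 20 GABAergic genes, 14 of 15 peptide genes and 19 of 19 striatal genes, with medians of 0.49, 1.29 and 0.60 beside 0.13 for all genes, and 6, 10 and 14 of them had an unadjusted p under 0.05, where 4.02% of all genes did. The medians of the GABAergic, peptide and striatal lists were 0.38, 1.17 and 0.48 with TMM. A positive sign was also found for 20 of 21 astrocyte, 18 of 20 microglia and 75 of 79 cytoplasmic ribosomal protein genes. Their medians were 0.32, 0.36 and 0.40, and 0, 0 and 24 of them had an unadjusted p under 0.05. Of 20 endothelial and mural cell genes, 1 was positive. The sign alone was thus not particular to the lists of tagged neurons. Without VGAT pools 1 and 2, 16 genes were called, all higher in the VGAT line, among them Sst, Npy, Vip, Cort, Crh, Tac2 and Pnoc of the peptide list, Htr3a and Nxph1 of the GABAergic list, Penk, Tac1, Adora2a and Ppp1r1b of the striatal list, and Crhbp and Cox6a2. The pools left out were singled out by low values of such genes, so that these calls are no test of a difference between the lines. Sst then differed by 2.44 ± 0.32 and Tac2, which encodes neurokinin B, by 2.59 ± 0.25. Over all 5 pools the same values were 1.52 ± 0.53 and 1.80 ± 0.44, and neither passed the test.

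**Figure D5:**
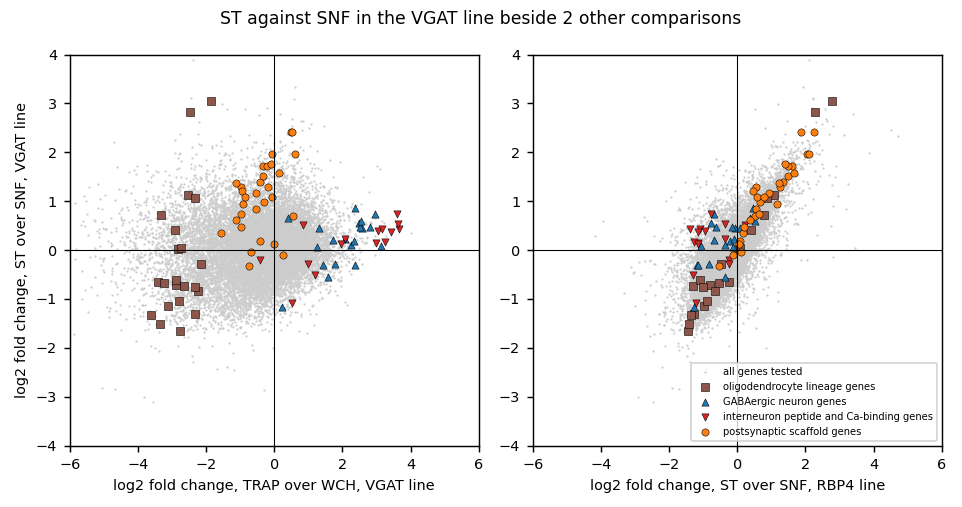
Log2 fold change of ST over SNF in the VGAT line (vertical) against that of TRAP over WCH in the same line (left panel) and of ST over SNF in the RBP4 line (right panel), each grey point a gene, with 4 gene lists as coloured symbols. Genes spread widely beside TRAP (r = 0.13, with 11 genes outside the axes) and lie along a diagonal beside the RBP4 line (r = 0.76).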

How the data were processed

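RNA-seq files of 20 VGAT-TRAP libraries (WCH, TRAP, SNF and ST of 5 pools) and of 10 RBP4-TRAP libraries (SNF and ST) were used, with line, fraction and pool taken from the labels. The members and gene lists were chosen with earlier results of these data known.

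The authors used STAR 2.0.4b for alignment and featureCounts 1.4.5 (Subread) for counting, as their processing notes list, and kept reads with a single alignment and a single gene, which leaves out reads shared by near-identical or overlapping genes. The deposited counts are whole numbers without normalization. The deposited CPM were made by the authors from the count and the library total, mitochondrial genes included, and the deposited RPKM from these and the gene length. Both were used only to check the counts. The use of strand is not given in the sources used here.

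Genes on the mitochondrial chromosome (37) were left out, and cpm were computed on the remaining totals without a further factor. Coordinates came from the deposited files. Symbols and the lengths of coding sequences and 3′ UTRs came from GENCODE M21 (GRCm38), which gave a symbol to 40254 of 41388 genes. Genes that reached 0.5 cpm in 3 or more libraries entered the quasi-likelihood test of edgeR (version 4.0.16, under R 4.3.3; functions glmQLFit, glmQLFTest), with the pool as a block and Benjamini-Hochberg adjustment. The file units met those assumed in the design. Lines and fractions were compared as interactions of this change. The study states that the 4 samples of a pool were collected in parallel, and deviations of ST and SNF from their group means correlated between 0.23 and 0.65 within pools, against a mean of -0.12 between pools. Whether pools were separate in time is not given, so that p-values measure the spread of the paired change over these pools only.

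Genes named are the 10 largest changes in each direction (mean of at least 5 cpm, no overlap, 46 predicted models left out), the most abundant and most changed members of each list (mean of at least 1 cpm), the 4 largest interactions in each direction and 13 fixed genes. Others were chosen after their values were seen, and some genes under the rule are not reported here. Lists are described by counts and medians only.

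Alternatives were TMM and DESeq2 size factors, DESeq2 1.42.0, a likelihood ratio test, other filters, other gene exclusions, no block, all 20 libraries of the line, each pool left out, and, added after seeing the data, leaving out pools 1 and 2. The fits were tested on simulated data with 200 genes changed 2-fold. The main comparison found 193 of them, that between lines 104 and that between fractions 117, with 13, 7 and 5 false calls. Tables and figures were made in Python 3.11.15 (pandas 2.3.3, numpy 2.4.6, matplotlib 3.10.9).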

Additional observations from a re-analysis of the deposited data

Results flagged for a closer look

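Some libraries lay far from the other 4 of their group by Dixon's test, which picks out about 1 in 20 groups by chance. Among 208 groups of 5 libraries, 21 were picked out (10.1%). Of these, 16 were values of pool 3, among them its mitochondrial share, which was 41.9% in SNF and 19.0% in ST. In SNF of pool 3 the levels were 18228 cpm for Slc1a2, 287 for Gfap, 354 for Ctss, 12832 for Cpe, 1808 for Purb and 712 for Zfp365, all higher than in the other SNF libraries. Gria2 (1182 cpm), Grik5 (21.3), Kcna3 (6.26), Pcsk1 (16.4) and Elavl2 (32.5) were lower there. In ST of pool 3, Bcas1 (977 cpm) and Myh14 (49.8) were high and Eif2ak3 (16.9) was low. Apart from pool 3, Syndig1l was high in ST of pool 5 (104 cpm), Mrps26 was low there (20.8), Rpl4 was high in ST of pool 4 (1224), Crh was high in SNF of pool 2 (13.7) and SNF of pool 1 had the largest total, 18406992 counts.

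Many genes changed differently from SNF to ST than from WCH to TRAP in the tested interaction, 6498 with a higher and 2779 with a lower value. Named genes with a lower value were Abhd11os (-3.59), Sst (-3.09), Pthlh (-3.03), Crh (-3.02), Npy (-2.96), Pvalb (-2.92), Cort (-2.77), Vip (-2.76), Gad1 (-2.13), Gad2 (-2.02) and Slc32a1 (-1.94). Those with a higher value were Xist (6.27), Mobp (5.34), Slco1a4 (5.22), Mbp (4.94), Camk2a (3.13), Slc17a7 (2.10), Shank3 (1.94) and Dlg4 (1.72).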

How the results depend on the processing

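Of 102 named genes, 79 passed the test from SNF to ST, and 0 of these changed direction in any of 17 alternatives, while 23 lost the call in at least 1. Without the block for the pool, 2058 genes were higher and 1548 lower, and 17 of the 79 named genes lost the call. A 1.5-fold minimum left 2191 genes higher, and keeping mitochondrial genes gave 5928 higher and 1551 lower. Leaving out each pool gave 2569 to 3276 higher and 2214 to 2379 lower genes.

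Between the lines, the counts were 675 higher and 116 lower at an unadjusted p, 8 higher with the likelihood ratio test, 21 higher and 5 lower without a filter, 1 higher without RBP4 replicate 4 or its ST library, 0 to 1 higher and 0 lower when a pool of either line was left out, and 16 higher without VGAT pools 1 and 2. Both the ST library and these pools were singled out by values of the genes then called, so that these counts support no difference. Between fractions, 4443 genes were lower with TMM, 4585 with DESeq2 size factors, 4699 with DESeq2, 1845 with mitochondrial genes kept and 1797 without pools 1 and 2, and leaving out a pool gave 5373 to 6724 higher and 2239 to 2819 lower. The cause of these shifts was not tested.

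Genes that did not pass the test and changed direction are given with their range over the 5 fits that leave out a pool. Slc1a2 had -0.41 to 0.086, Actb -0.088 to 0.33, Cpe -0.18 to 0.10, Mrpl42 -0.26 to -0.024, H2afy -0.0029 to 0.12, Pthlh -0.40 to 0.16, Crh -0.054 to 0.46, Gad1 -0.071 to 0.28, Vip -0.11 to 0.43, Slco1a4 0.13 to 0.98 and Gad2 -0.49 to -0.067. With mitochondrial genes kept, Slc1a2 had 0.076, Cpe 0.20, Mrpl42 0.091 and Pthlh 0.15. H2afy had -0.031 with TMM and -0.026 with DESeq2 size factors and with DESeq2. Pthlh had 0.0059 without the block and 0.0012 in 20 libraries without it. Without pools 1 and 2, Actb had -0.32, Mrpl42 0.082, H2afy -0.050, Pthlh 0.55, Slco1a4 -0.45 and Gad2 0.22.

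Low counts limit Rpl10a, Dlx2 and Cldn5, at a few cpm or less. The number of pools, 5, limits any statement on their division, and the reads' bias to 3′ ends and the unknown handling of strand limit the values of overlapping genes.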
